A study of Mus musculus with 4 samples.

Results

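Single-exon circles are circular RNAs (circRNAs) whose 2 ends are the start and the end of 1 and the same annotated exon, so that the circle can be that exon alone. They were found by matching the coordinates of every deposited circRNA to the exons of GENCODE M21, on the mouse build GRCm38. This gave 869 circles of 23980 circRNAs (3.62%). Another 18719 circRNAs ran from one exon to a later exon of 1 transcript and are called multi-exon circles here. The match uses the ends only: whether an intron of another transcript was spliced out of the circle was not measured, and 40 of the 869 exons (4.60%) are cut by such an intron in the annotation.

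A circRNA forms when the splicing machinery joins the 3′ end of an exon to the 5′ end of an exon that lies upstream or, in a single-exon circle, to its own 5′ end. The product has no free ends, resists exonucleases and is turned over slowly, and neurons carry many of them. Several much studied circles are single exons: those of Hipk3, Slc8a1 and Zfp609, and Cdr1as, which is dense in binding sites for the microRNA miR-7.

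The RNA came from mouse brain. In 3 libraries the mice had a permanent middle cerebral artery occlusion (MCAO), an ischemic stroke made by blocking the vessel with a filament; tissue was taken at 3 h, and each library holds the pooled RNA of 6 mice. These libraries are infarct core close to the frontal lobe (frontal core), infarct core close to the occipital lobe (occipital core) and penumbra, the threatened tissue around the core. The fourth library is cortex of sham-operated mice, taken where core and penumbra would lie; its number of mice and their sampling time are not stated in the sources used here. No genotype, strain, age or sex is given in the labels. All 4 tissues were perfused through the heart with cold buffer, their RNA was extracted with Trizol and depleted of ribosomal RNA, and the labels name both a TruSeq and a directional NEBNext kit for the libraries. With 1 library per group and pooled mice, no value has a replicate error: every interval below is a 95% interval that covers counting error only, and a test on the reads of 2 libraries compares those libraries, not the conditions.

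The total circRNA count was 121393 in frontal core, 83090 in occipital core, 96349 in penumbra and 106558 in sham, so occipital core was the shallowest. Levels are given as counts or as CPM, the count scaled to the library's sum over all circRNAs. The table holds circRNAs only, so the tissue could be checked only through the circRNAs of marker genes. Circles of cortical neuron markers (4 of 7 genes had one) summed to 667 CPM in frontal core, 927 in occipital core, 882 in penumbra and 638 in sham. Those of striatal neuron markers (8 of 13 genes) summed to 2199, 2311, 1899 and 2036 CPM in the same order. Astrocyte markers (2 of 6) gave 115, 132, 135 and 65.7 CPM, from only 14, 11, 13 and 7 counts. Oligodendrocyte markers (5 of 8) gave 552, 722, 664 and 572 CPM. No microglial or blood marker had a circRNA, and of 5 endothelial markers only 1 had one, with 1 count or none in each library; Slc17a7, Gfap, Drd1 and Drd2 were among the markers at 0.

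The sequences that follow are from the GENCODE M21 transcripts, 5′ to 3′ on the transcribed strand. The first pair are whole fully coding exons, shown because the first is the circle with the most counts per base and the second the shortest one detected with 10 or more counts in every library; the first and last 10 bases, which the circle joins, are in capitals. Med13l exon 2 lies at chr5:118593333-118593570 on the plus strand and Rnf121 exon 8 at chr7:102023312-102023413 on the minus strand.
Med13l: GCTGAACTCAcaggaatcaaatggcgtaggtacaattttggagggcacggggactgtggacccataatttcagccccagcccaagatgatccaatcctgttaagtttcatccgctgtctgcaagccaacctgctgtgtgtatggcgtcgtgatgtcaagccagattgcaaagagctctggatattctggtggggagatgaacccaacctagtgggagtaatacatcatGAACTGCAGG
Rnf121: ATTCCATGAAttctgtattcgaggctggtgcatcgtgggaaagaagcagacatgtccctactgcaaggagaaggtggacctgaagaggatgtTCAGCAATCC

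The next 5 show the junction that exists only in the circle: the last 30 bases of the exon in lower case run into its own first 30 bases in capitals. They are the fully coding exons among the 10 most abundant circles (Cdyl at chr13:35815909-35816575, plus strand; Kcnj6 at chr16:94832299-94833219, Nfix at chr8:84771784-84772315 and Tmem132d at chr5:128268492-128269377, minus strand) and Sel1l3 (chr5:53199901-53200471, minus strand), which is called higher in occipital core below. In the linear mRNA the capitals would follow the exon before and the lower-case bases would run into the exon after.
Cdyl: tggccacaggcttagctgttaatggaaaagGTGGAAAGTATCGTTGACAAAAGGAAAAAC
Kcnj6: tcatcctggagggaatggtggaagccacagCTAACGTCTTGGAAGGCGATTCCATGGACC
Nfix: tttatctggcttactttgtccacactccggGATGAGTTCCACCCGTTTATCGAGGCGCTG
Tmem132d: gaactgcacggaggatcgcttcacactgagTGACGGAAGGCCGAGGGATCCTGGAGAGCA
Sel1l3: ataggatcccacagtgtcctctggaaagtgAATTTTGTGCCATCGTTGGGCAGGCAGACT

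The exons that formed these circles were early, long and set between long introns. Of the 869, 836 (96.2%) were internal exons, with an intron on both sides. Only 3 were first exons, the most abundant of Nav1 (0, 1, 0 and 3 counts in frontal core, occipital core, penumbra and sham), and 2 were last exons, the most abundant of Zfp109 (4, 9, 4 and 3 counts). The remaining 28 were whole genes of 1 exon, all of them snoRNA, scaRNA or other small RNA genes, which have no annotated splice site at all. By host, 834 circles (96.0%) belonged to protein-coding genes and 7 to long noncoding RNA genes, among them Pvt1 exon 2.

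Exon rank was counted from the 5′ end of the transcript. On the principal transcript of each host gene (a protein-coding transcript that APPRIS tags as principal, where there is one), 299 of 748 internal exons that formed a circle were exon 2 (40.0%, exact binomial interval 36.4 to 43.6%) and 139 were exon 3 (18.6%, 15.9 to 21.6%). Among 9994 other internal exons of the same genes, 4.41% were exon 2 and 5.86% exon 3. Exons past the tenth made up 14.0% of the circles and 51.2% of the other exons. Of the multi-exon circles 23.6% (4419 of 18719, interval 23.0 to 24.2%) began at exon 2, ranked on the transcript with the most exons. By that ranking 316 of all 869 single-exon circles were exon 2 (36.4%, interval 33.2 to 39.7%), and the multi-exon share lies below this interval. Exons of 1 gene are not independent of each other.

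The internal exons that formed circles had a median length of 391 bases (interquartile range 214.8 to 824), while the other internal exons of the same genes had a median of 132 bases (97 to 176). The intron upstream of the circles had a median of 15047.5 bases and the one downstream 14555.5, against 2076 and 1939.5 for the other exons. First introns are often long, so exon 2 was also set against exon 2. The 300 principal-transcript second exons that formed a circle had a median of 502 bases, with introns of 22728.5 bases upstream and 23782.5 downstream. The 4881 second exons of circRNA host genes that did not had medians of 121, 8178 and 3332 bases. Among the 122 internal circles with 40 or more counts, both features were more marked: the median length was 606.5 bases and the introns were 26315 and 30441 bases.

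**Figure D1:**
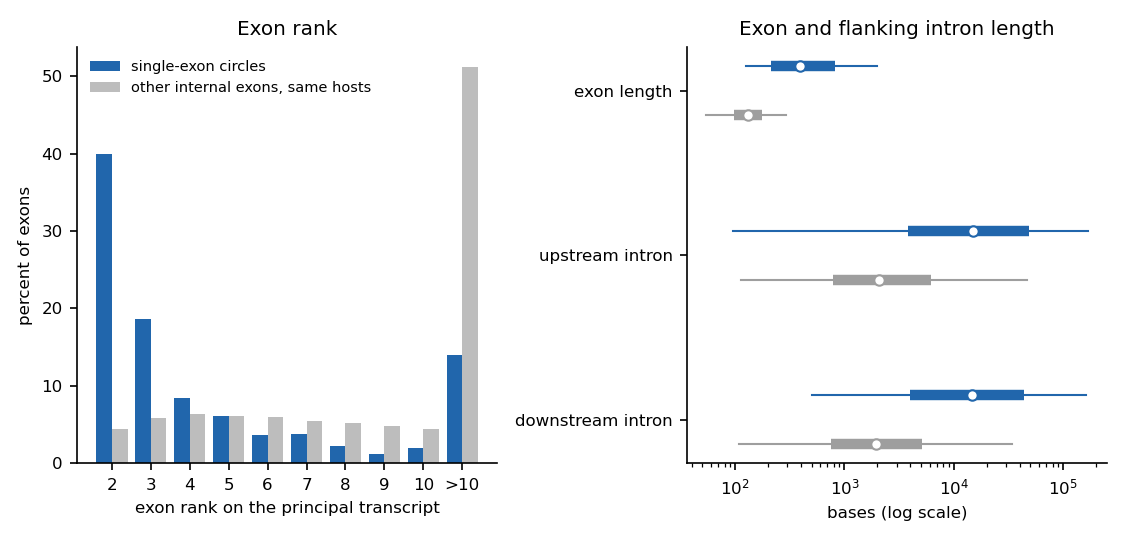
Left, percent of exons at each rank on the principal transcript (1 bar per rank, exons past the tenth pooled) for internal exons that formed a single-exon circle and for other internal exons of the same genes. Right, lengths in bases on a log axis of the exon, the upstream intron and the downstream intron for both sets (open point the median, thick line the quartiles, thin line the 5th to 95th percentile); circles lie at 40.0% for exon 2 against 4.41%, and their introns are longer on both sides.

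Most circles hold coding sequence. Of the internal exons, 531 (63.5%) were coding throughout, 248 (29.7%) in part and 57 (6.82%) not at all. Exon 2 circles were partly coding in 171 of 316 (54.1%), as in Fat3, where 3277 of 3306 bases are coding, Slc8a1 (1799 of 1830) and Tcf20 (5736 of 5772). A length that is a multiple of 3, which keeps a reading frame open around the circle, was found in 208 of 531 fully coding circles (39.2%, interval 35.0 to 43.5%) and in 41.1% of the other fully coding internal exons. The second value lies inside the interval of the first. The GC content of the circles had a median of 50.7%, and that of multi-exon circles 47.5%.

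Few hosts made more than 1 such circle. The 841 circles of genes with introns came from 754 genes, and 75 genes (9.95%) had 2 or more. Grm5, the metabotropic glutamate receptor 5, had 4, of its exons 3, 4, 5 and 9. The other 10 genes with 3 or more had 3 each: Ash1l, Arhgap21, Brinp1, Csmd1, Dlgap1, Nav3, Pclo, Qk, Rims2 and Zmym2. Most of these extra circles were rare: the Grm5 circle of exon 9 had 30, 24, 30 and 19 counts (frontal core, occipital core, penumbra, sham), and that of exon 5 had 0, 1, 1 and 0. Of the 841 circles, 656 (78.0%) shared their host with a multi-exon circle. A total of 342 (40.7%) were the most abundant circRNA of the host, where ties and a host's only circRNA also count. Among those with 40 or more counts this held for 92 of 122 (75.4%), a cutoff that itself selects abundant circles. Exon 2 circles led their host more often (167 of 316, 52.8%, interval 47.2 to 58.5%) than those of other ranks (175 of 525, 33.3%, interval 29.3 to 37.5%).

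Single-exon circles were few but abundant. They held 7.73% of the circRNA count in frontal core (7.58 to 7.88%), 8.61% in occipital core (8.42 to 8.80%), 8.08% in penumbra (7.91 to 8.25%) and 7.41% in sham (7.26 to 7.57%), with 3.62% of the circRNAs. Relative to sham the share was 1.04 times in frontal core (1.01 to 1.07), 1.16 times in occipital core (1.12 to 1.20) and 1.09 times in penumbra (1.06 to 1.12). The order was thus occipital core, penumbra, frontal core, sham, and the 4 intervals do not overlap. The share is a sum in which the most abundant circles weigh most. Among the 123 circles with 40 or more counts, the median log2 ratio to sham was 0.01 in frontal core, 0.10 in occipital core and 0.08 in penumbra. In frontal core 63 of these circles were higher than in sham and 60 lower. In such tissue RNA, fewer cells of a type and less of a circRNA per cell cannot be told apart. Of the 20 most abundant circRNAs 6 were single exons, and of the 100 most abundant 14. At the other end, 348 of the 869 (40.0%) had only 2 to 4 counts over the 4 libraries together, and 334 (38.4%) were detected in every library, against 30.4% of all circRNAs. Detected circles numbered 641 in frontal core, 617 in occipital core, 651 in penumbra and 603 in sham, or 579, 617, 621 and 559 with each library thinned to the smallest total.

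The deposited FPKM scale gives another picture of their weight. The authors' FPKM equals the count divided by the span from start to end on the genome, which for a single exon is its length but for a multi-exon circle includes the introns. On that scale single-exon circles summed to 41.5, 41.7, 41.6 and 40.4% of the total in frontal core, occipital core, penumbra and sham, and multi-exon circles to 43.8, 43.0, 43.2 and 44.0%. By count, multi-exon circles held 80.7, 79.6, 80.3 and 81.1%. Whether the counts are of junction reads alone or of all reads within the circle is not stated in the sources used here.

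A circle of exon 2 gave most of the counts in every library: 62.1% in frontal core (61.1 to 63.0%), 64.3% in occipital core (63.2 to 65.4%), 62.0% in penumbra (60.9 to 63.1%) and 63.3% in sham (62.2 to 64.3%). The occipital core share lay above those of frontal core and penumbra and overlapped that of sham. Exon 3 added 13.5, 13.3, 14.0 and 13.7%. Weighted by counts, the median length of a single-exon circle was 811 bases in frontal core, 873 in occipital core, 861 in penumbra and 719 in sham. For multi-exon circles it was 493, 494, 484 and 476 bases of spliced sequence. The single-exon value was lowest in sham, and rests partly on 1 circle: without Fat3 exon 2 it was 714, 811, 727 and 667 bases, again lowest in sham.

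The 10 most abundant single-exon circles by CPM held about the same part of the class in each library: 39.9, 41.4, 39.6 and 39.1% of its counts in frontal core, occipital core, penumbra and sham. Values below are counts in that order of libraries. Exon 2 of Fat3 (chr9:16374949-16378254), a giant cadherin of neuronal adhesion, had 686, 503, 544 and 479. That is 5651, 6054, 5646 and 4495 CPM, with sham lowest. Exon 2 of Med13l, a subunit of the kinase module of Mediator, had 516, 426, 451 and 578, or 4251, 5127, 4681 and 5424 CPM, with sham highest and frontal core lowest. Exon 2 of Slc8a1 (chr17:81647809-81649638), the sodium/calcium exchanger NCX1, had 628, 442, 452 and 420, or 5173, 5320, 4691 and 3942 CPM. These 3 traded places: Fat3 led in the MCAO libraries and Med13l in sham.

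Exon 2 of Tcf20 (chr15:82851513-82857284), a nuclear transcription coregulator, is 5772 bases long and had 396, 335, 286 and 242 counts, or 3262, 4032, 2968 and 2271 CPM. The Cdyl circle had 384, 267, 290 and 249 counts, or 3163, 3213, 3010 and 2337 CPM. Cdyl is a chromodomain corepressor; the exon is exon 5 of its longest transcript and exon 2 of the principal one. In both, sham was the lowest of the 4 libraries. Exon 2 of Kat6b (chr14:21516626-21517498), a histone acetyltransferase, had 318, 217, 248 and 280 counts, which come to 2620, 2612, 2574 and 2628 CPM and so to nearly the same level in every library. Exon 3 of Kcnj6, the GIRK2 potassium channel, had 244, 220, 256 and 243 counts. It was nearly the only circRNA of its gene, with 99.8% of the host's counts.

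Exon 2 of Hipk3 (chr2:104470749-104471847), a nuclear kinase, had 217, 190, 216 and 202 counts, or 1788, 2287, 2242 and 1896 CPM. Exon 2 of Nfix, a nuclear factor I transcription factor, had 178, 170, 184 and 219, or 1466, 2046, 1910 and 2055 CPM. Exon 2 of Tmem132d, a membrane protein, had 158, 162, 154 and 180, or 1302, 1950, 1598 and 1689 CPM. In these last 3 frontal core was the lowest library. The 10 circles held between 74.5% (Kat6b) and 99.8% (Kcnj6) of all circRNA counts of their hosts.

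**Figure D2:**
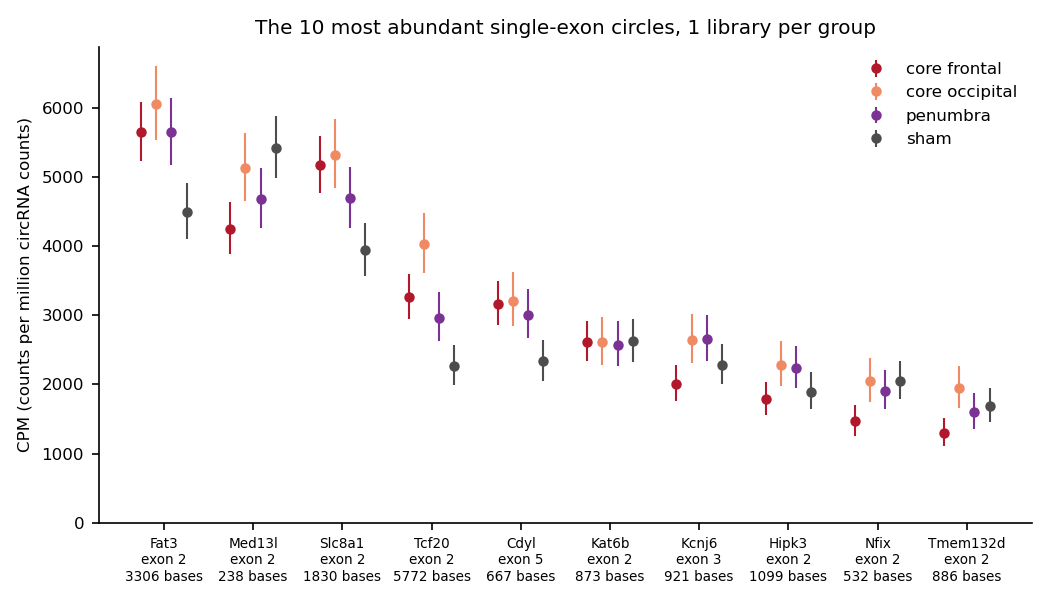
Level in CPM of the 10 most abundant single-exon circles (x axis, by host gene) in the 4 libraries (points, 1 library per group; error bars are 95% Poisson intervals of the count). Fat3, Slc8a1, Tcf20 and Cdyl are lowest in sham and Med13l is highest there, at 5424 CPM.

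Per length the order changed. In the deposited FPKM, Med13l exon 2 was highest by far at 17860, 21542, 19668 and 22791. Cdyl followed with 4743, 4818, 4513 and 3503. The 102-base circle of Rnf121 exon 8 came next in the mean, at 2100, 2832, 4070 and 6072 FPKM, lowest in frontal core and highest in sham, as Med13l was. Fat3 exon 2 fell to position 17 of 869 (1709, 1831, 1708 and 1360) and Tcf20 to position 52 (565, 699, 514 and 393). Of the 10 highest by CPM, 6 were among the 10 highest by FPKM. New among these were Rnf121, Tlk1 exon 2 (119 bases; 34, 36, 50 and 38 counts), Pcmtd1 exon 2 and Rab3gap2 exon 2. Tlk1 codes for a nuclear kinase and Rab3gap2 for a regulator of the Rab3 vesicle GTPase. The Rab3gap2 exon is taken from a retained-intron transcript, and another transcript joins the same ends over an intron. That circle may therefore be shorter than the exon, and its FPKM position is uncertain.

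Other ranks from 4 to 10 are shown by their most abundant circle. For exon 5 this was Cdyl and for exon 8 Rnf121. Exon 4 of Thrb, the thyroid hormone receptor beta, had 44, 39, 51 and 56 counts. Exon 7 of Hmgxb3 had 23, 15, 15 and 25, exon 9 of Grm5 30, 24, 30 and 19, and exon 10 of 4931406P16Rik 16, 19, 15 and 22. As for Rab3gap2, another transcript of Hmgxb3 joins the same ends over an intron, so its circle may not be the exon alone. The exon with the highest rank among the longest and shortest named ones was exon 13 of Akap6, an anchoring protein for protein kinase A: 3388 bases, with 24, 11, 14 and 17 counts. The shortest with 10 or more counts in every library were Rnf121 (102 bases), Tlk1 (119 bases) and exon 2 of Hivep1 (143 bases; 16, 10, 12 and 21 counts), and the longest were Tcf20, Akap6 and Fat3.

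Exon 6 of C230004F18Rik (chrX:61183248-61186174, plus strand) was the most abundant circle past exon 5. RefSeq lists this gene as Cdr1os, with Cdr1as as a synonym, and the exon overlaps Cdr1 on the other strand; the table gives no strand, so reads of both cannot be told apart. It had 179, 145, 154 and 131 counts in frontal core, occipital core, penumbra and sham, or 1475, 1745, 1598 and 1229 CPM. Sham was lowest, but no ratio to sham reached an adjusted p under 0.05. The largest was occipital core to sham, at 1.42 (1.11 to 1.81; Fisher's exact test, Benjamini-Hochberg adjusted p = 0.136). Its transcribed sequence was searched, through the junction, for GTCTTCC, the complement of the miR-7 seed (bases 2 to 8, in capitals in the miRNA, from RefSeq), and for the shorter TCTTCC, which is contained in it.
mmu-miR-7a-5p: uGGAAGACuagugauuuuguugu
mmu-miR-7b-5p: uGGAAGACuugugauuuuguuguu
The window shown next is the 300 bases with the most TCTTCC (in capitals), at chrX:61183606-61183905, bases 359 to 658 of the exon.
C230004F18Rik: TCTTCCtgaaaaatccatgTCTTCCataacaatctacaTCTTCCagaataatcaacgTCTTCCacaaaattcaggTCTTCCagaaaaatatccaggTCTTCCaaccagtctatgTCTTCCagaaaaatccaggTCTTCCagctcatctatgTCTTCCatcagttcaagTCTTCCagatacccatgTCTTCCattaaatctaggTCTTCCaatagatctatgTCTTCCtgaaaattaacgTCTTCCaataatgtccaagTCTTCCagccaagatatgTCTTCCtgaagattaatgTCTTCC

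This window holds 17 copies of TCTTCC. The whole exon of 2927 bases holds 139, and 123 of GTCTTCC, which is 42.0 per kb. In the other 868 single-exon circles the rate was 0.106 per kb and the highest number 2 (Nfatc3 exon 9, R3hcc1l exon 2 and Plekhm3 exon 2). A GTCTTCC was found in 56 of the 869 (6.44%, interval 4.90 to 8.29%) and in 6.08% of multi-exon circles. A match of letters is a description and not a bound site.

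**Figure D3:**
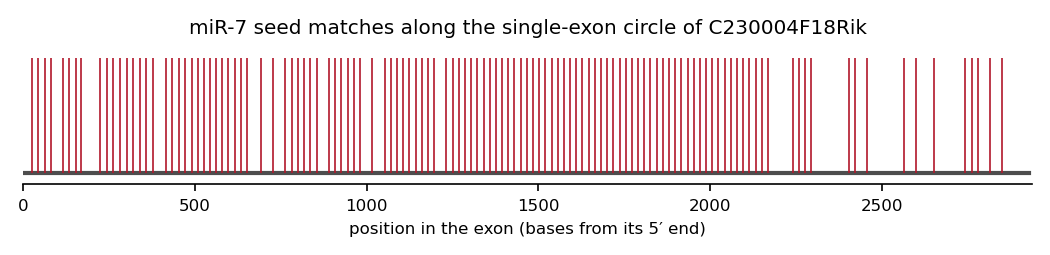
Position of each match to the miR-7 seed along the 2927 bases of C230004F18Rik exon 6 (x axis, bases from the 5′ end; 1 line per GTCTTCC match). The 123 matches run along most of the exon, and no other single-exon circle has more than 2.

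Each pair of libraries was compared by a two-sided Fisher's exact test of every circRNA that reached 10 counts in the pair, with Benjamini-Hochberg adjustment over all of them. To be called, a circRNA needed an adjusted p under 0.05 together with a 2-fold difference in CPM. Between penumbra and sham none of 203 single-exon circles tested was called, and of all 3717 circRNAs tested 0.0538% were. At an unadjusted p under 0.05 by Fisher's exact test there were 29 single-exon circles. The number of all circRNAs at that cutoff was not counted, so the 29 cannot be set against a background. After removing a trend with GC content, 1 single-exon circle was called lower. The edgeR exact test with an assumed coefficient of variation of 0.2 also called 0. Among the 10 most abundant circles the smallest adjusted p was that of Fat3, whose ratio was 1.26 (1.11 to 1.42, Fisher's exact test, adjusted p = 0.0667).

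Between frontal core and sham 1 of 214 was called, beside 0.747% of all 4152 circRNAs (0.458% in the lower direction). This was exon 8 of Rnf121, which codes for a RING-type ubiquitin ligase of the endoplasmic reticulum and Golgi, and it was lower. Its counts were 26 in frontal core, 24 in occipital core, 40 in penumbra and 66 in sham, so every MCAO library was below sham. The ratio of frontal core to sham was 0.346 (0.211 to 0.552; Fisher's exact test, adjusted p = 0.00135). The ratio was 0.466 in occipital core (0.279 to 0.754, adjusted p = 0.0664) and 0.670 in penumbra (0.441 to 1.01, adjusted p = 0.449). The 2 other circRNAs of Rnf121 together had 12, 9, 9 and 5 counts, or 98.9, 108, 93.4 and 46.9 CPM, with sham lowest, so the single-exon circle held 68.4% of the host's counts there and 93.0% in sham.

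Without the fold rule 6 of the 214 passed in this pair, beside 1.01% of all circRNAs. Passing without that rule depends on depth, here and in the pairs below. Of single-exon circles 14.2% had 40 or more counts over the 4 libraries, and of all circRNAs 7.49%, so the shares are not of equally deep sets. Tcf20 was 1.44 times its sham level (1.22 to 1.69, adjusted p = 0.00565), Slc8a1 1.31 times (1.16 to 1.49, adjusted p = 0.00813), Cdyl 1.35 times (1.15 to 1.59, adjusted p = 0.0423) and Fat3 1.26 times (1.12 to 1.42, adjusted p = 0.0393), all by Fisher's exact test. Med13l was lower, at 0.784 (0.695 to 0.884, adjusted p = 0.0248). The sixth was Rnf121. For Cdyl, Med13l and Fat3 the adjusted p rose to 0.218, 0.128 and 0.203 when every circRNA was tested, whatever its count. None of the 6 passed by the edgeR exact test with an assumed coefficient of variation of 0.2 (adjusted p = 1.00 for all but Rnf121, at 0.540). After removal of a trend with length, which was chosen after seeing the data, Tcf20 was at 1.08 (adjusted p = 0.759), Slc8a1 at 1.14 (adjusted p = 0.294), Cdyl at 1.28 (adjusted p = 0.106), Fat3 at 1.02 (adjusted p = 0.977) and Med13l at 0.836 (adjusted p = 0.113).

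Between occipital core and sham 2 of 188 were called, beside 0.467% of all 3424 circRNAs (0.292% in the higher direction), and both were higher. Exon 2 of Fmn1 (chr2:113363836-113365829, 1994 bases), a formin that builds actin filaments, had 178, 192, 152 and 113 counts in frontal core, occipital core, penumbra and sham, or 1466, 2311, 1578 and 1060 CPM. Its occipital core level was 2.18 times sham (1.72 to 2.77; Fisher's exact test, adjusted p = 4.54e-08) and sham was the lowest library. The ratio was 1.95 after removal of the GC trend and 1.74 after removal of the length trend, both short of the fold rule, and the edgeR exact test gave an adjusted p = 0.918. The 25 other circRNAs of Fmn1 had 84 counts in occipital core and 91 in sham, a ratio of 1.18 (0.869 to 1.61), and the single-exon circle held 69.6% of the host's counts in occipital core and 55.4% in sham. The interval of that ratio lies below that of exon 2.

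Exon 2 of Sel1l3 had 54, 71, 51 and 44 counts, or 445, 854, 529 and 413 CPM, so occipital core stood above the other 3 libraries. The ratio to sham was 2.07 (1.40 to 3.09; Fisher's exact test, adjusted p = 0.0295). It was 1.91 with TMM scaling, 1.90 after removing the GC trend and 2.01 after removing the length trend, with adjusted p = 0.0562, 0.0791 and 0.0568. With no count filter the adjusted p was 0.181 and by the edgeR exact test 0.933. The 12 other circRNAs of the gene gave a ratio of 1.40 (1.01 to 1.95). Without the fold rule 6 of the 188 passed, beside 0.847% of all circRNAs, and all were higher: Tcf20 at 1.78 (1.50 to 2.10, Fisher's exact test, adjusted p = 2.50e-08), Fat3 at 1.35, Slc8a1 at 1.35, Cdyl at 1.38, Fmn1 and Sel1l3. Of these, Fat3, Slc8a1 and Cdyl missed the threshold with TMM scaling (adjusted p = 0.0509, 0.0702 and 0.157). None of the 6 passed by the edgeR exact test with an assumed coefficient of variation of 0.2 (adjusted p = 0.933 for Tcf20).

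**Figure D4:**
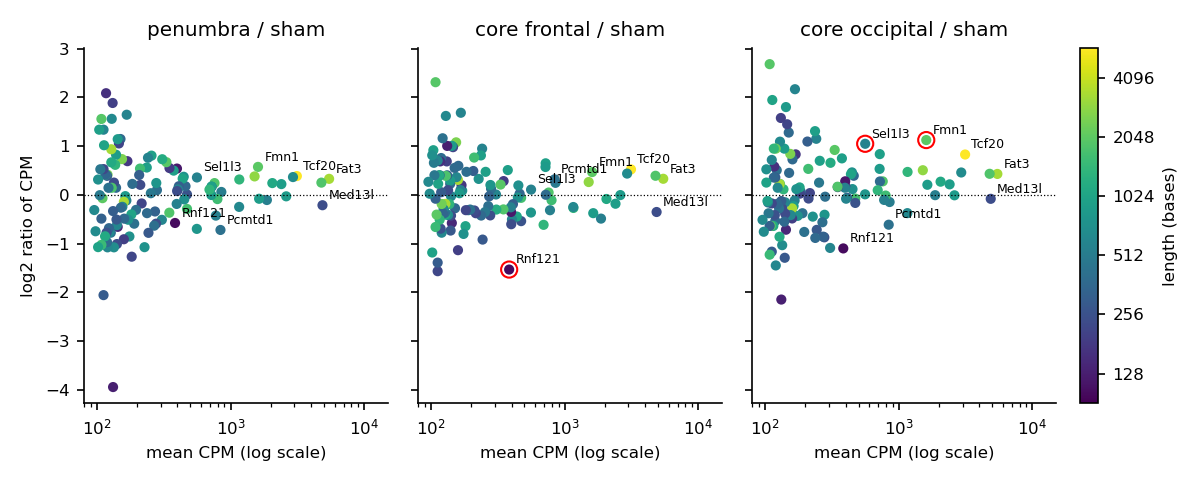
log2 ratio of each MCAO library to sham (y axis, 1 panel per library) against mean CPM over the 4 libraries (x axis, log scale) for single-exon circles with 40 or more counts; 1 point is 1 circle, its colour is the length and called circles have a red ring. Rnf121 is called lower in frontal core, Fmn1 and Sel1l3 higher in occipital core, and none is called in penumbra.

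The MCAO libraries were also compared with each other. Between penumbra and frontal core 2 of 216 were called, beside 0.934% of all 3962 circRNAs (0.404% in the lower direction), and both were lower in penumbra. Exon 2 of Pcmtd1, related to protein repair methyltransferases, had 145, 52, 56 and 102 counts in frontal core, occipital core, penumbra and sham, or 1194, 626, 581 and 957 CPM. Frontal core and sham were high and the other libraries low. Penumbra was 0.487 times frontal core (0.351 to 0.667; Fisher's exact test, adjusted p = 0.00178), and 0.516 after removing the GC trend, which is short of the fold rule; the edgeR exact test gave an adjusted p = 0.720. The neighbouring pair of core libraries differed by 1.91 (frontal to occipital, 1.38 to 2.67, adjusted p = 0.0157).

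The other was Snora61 (chr4:132310240-132310369), a box H/ACA small nucleolar RNA of 130 bases that is a whole gene. It had 39 counts in frontal core, 3 in occipital core, 1 in penumbra and 17 in sham. Penumbra was 0.0323 times frontal core (0.000798 to 0.191; Fisher's exact test, adjusted p = 1.6e-05), from 1 count. It was also the 1 call of 209 between the core libraries, beside 0.344% of all 3780 circRNAs (0.185% in the higher direction), at 8.90 (2.83 to 45.0, adjusted p = 0.00204) from 3 counts in occipital core, and at an adjusted p = 0.521 by the edgeR exact test. The 28 small RNA genes together had 115, 34, 47 and 68 counts. Between penumbra and occipital core none of 197 was called, and 0.0606% of all 3301 circRNAs were. The count at an unadjusted p under 0.05 by Fisher's exact test was 12, again without a count over all circRNAs to set it against. The edgeR exact test called 0.

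Without the fold rule 4 of the 209 passed between the core libraries, beside 0.556% of all circRNAs. Beside Snora61 and Pcmtd1 these were Fmn1 (0.635, frontal to occipital, 0.515 to 0.782; Fisher's exact test, adjusted p = 0.00823) and exon 2 of Mapk4, an atypical MAP kinase, at 0.599 (0.456 to 0.785, adjusted p = 0.0269). Mapk4 had 105, 120, 125 and 111 counts in frontal core, occipital core, penumbra and sham. The comparisons share libraries, so a value in sham or in frontal core enters several of them. The calls are 0.467% of the single-exon circles tested between frontal core and sham, 1.06% between occipital core and sham, 0.926% between penumbra and frontal core and 0.478% between the core libraries, and each of these rests on 1 or 2 circles.

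The longest circles were higher in every MCAO library than in sham. The 72 circles of 1600 bases or more summed to 21262 CPM in frontal core, 24516 in occipital core, 21028 in penumbra and 16639 in sham. They were thus 1.28 times sham in frontal core (1.20 to 1.36), 1.47 times in occipital core (1.38 to 1.57) and 1.26 times in penumbra (1.19 to 1.35). Without Fat3, Slc8a1 and Tcf20, which hold most of these counts, the remaining 69 gave 1.21 (1.09 to 1.34), 1.54 (1.38 to 1.71) and 1.30 (1.17 to 1.45). Exon 2 and later exons gave similar values: the ratios were 1.28, 1.48 and 1.24 for exon 2 circles of this length and 1.28, 1.44 and 1.36 for those past exon 2, with overlapping intervals.

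Of the 17 long circles with 40 or more counts, sham was the lowest library for 11 and the highest for 2. Beside those already given, these included exon 5 of Nsd1, a histone H3 lysine 36 methyltransferase (24, 14, 15 and 10 counts), exon 3 of Chd9, a chromatin remodeler (31, 18, 21 and 16), and exon 2 of Aftph, a clathrin accessory protein (33, 37, 36 and 25). Exon 2 of Zfp516, a zinc finger protein, had 17, 15, 8 and 3. On the other side, exon 2 of Slc8a3, the exchanger NCX3, had 37, 35, 28 and 40 counts, and its CPM of 305, 421, 291 and 375 put sham below occipital core and above the others. Exon 2 of N4bp1 and exon 4 of Zfyve9 had the highest CPM in sham. Of the 81 multi-exon circles with 1600 or more spliced bases and 40 or more counts, sham was the lowest library for 27 and the highest for 9.

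Among shorter circles the ratios did not follow length, and no class was higher in all MCAO libraries. From 800 to under 1600 bases (149 circles) the ratios to sham were 0.971 (0.913 to 1.03) in frontal core, 1.21 (1.13 to 1.29) in occipital core and 1.12 (1.05 to 1.19) in penumbra. From 400 to under 800 bases (192 circles) they were 1.02, 1.01 and 0.955, with all intervals across 1. From 200 to under 400 bases (261 circles) frontal core was lower than sham, at 0.912 (0.854 to 0.976). Under 200 bases (195 circles) penumbra was higher, at 1.25 (1.10 to 1.43). Across the 123 circles with 40 or more counts, Spearman's rho between length and the log2 ratio to sham was 0.18 in frontal core, 0.31 in occipital core and 0.24 in penumbra. This is a description across circles that share the libraries and the sham denominator.

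Multi-exon circles moved in the same direction by less. Those with 1600 or more spliced bases were 1.15 times sham in frontal core (1.11 to 1.20), 1.22 times in occipital core (1.17 to 1.28) and 1.10 times in penumbra (1.06 to 1.15). In occipital core and penumbra the intervals of single-exon and multi-exon circles do not overlap, and in frontal core they touch at 1.20. Spearman's rho over 1497 multi-exon circles was 0.16, 0.15 and 0.04. The ratios of the ischemic libraries rest on 1 sham library, and the RNA integrity, insert size and read length of the libraries are not stated in the sources used here. The astrocyte and cortical neuron marker circles given above were also lowest in sham. Those of striatal neurons were lowest in penumbra (1899 CPM, 2036 in sham) and those of oligodendrocytes in frontal core (552 CPM, 572 in sham). The astrocyte sums rest on 14, 11, 13 and 7 counts, and the intervals of their ratios to sham all cross 1. For cortical neuron markers the ratio to sham was 1.05 in frontal core (0.748 to 1.47). It was 1.45 in occipital core (1.03 to 2.04) and 1.38 in penumbra (0.993 to 1.93). Occipital core, with the highest long-circle ratio, had the lowest total count. The part of the markers and of the total count in the length pattern was not tested. After removal of the length trend over all circRNAs, the occipital core ratios to sham were 1.74 for Fmn1 (adjusted p = 0.00267), 1.26 for Tcf20 (adjusted p = 0.179), 1.08 for Slc8a1 and 1.01 for Fat3.

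**Figure D5:**
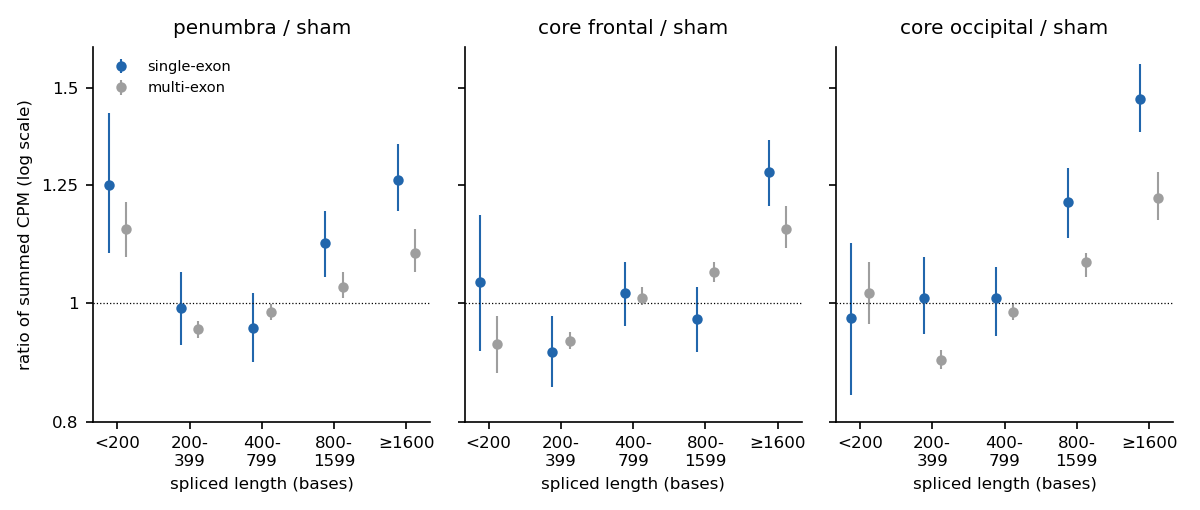
Ratio of summed CPM to sham (y axis) by length class in spliced bases (x axis) for each MCAO library (panels), for single-exon and multi-exon circles; error bars are 95% intervals from counts only. Single-exon circles of 1600 bases or more lie at 1.28, 1.47 and 1.26, above 1 in all 3 libraries and at or above the multi-exon circles of that length.

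The host genes fall into broad groups, chosen by symbol. In the list of single-exon circles known from other studies, 10 circles of 9 genes were found by symbol. They summed to 19927 CPM in frontal core, 23180 in occipital core, 20208 in penumbra and 18028 in sham. The list names Cdr1os, but the annotation calls that gene C230004F18Rik, so its circle is not in these values and is given above. Of its 9 tested in each pair, 2 were called higher in occipital core than in sham (Fmn1 and Sel1l3) and none in any other pair. Of all circRNAs tested 0.292% were called higher there. The list was chosen with earlier results of these data known and holds both circles called in that pair. Its calls and medians are therefore a description and cannot show that known circles differ from others. Its median log2 ratio to sham was 0.33, 0.43 and 0.25 in frontal core, occipital core and penumbra, beside 0.03, -0.06 and 0.01 over all circRNAs tested and 0.06, 0.14 and 0.15 over all single-exon circles tested. Exon 2 of Zfp609, a zinc finger protein, had 105, 70, 56 and 62 counts, with frontal core highest in CPM. Exon 3 of Foxo3, a stress-responsive transcription factor, had 8, 4, 6 and 8, and exon 2 of Hipk2 had 3, 3, 1 and 0, too few to compare. The second single-exon circle of Fat3, of exon 3, had 24, 25, 18 and 15 counts, 3.50% of the host's counts.

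The synapse list, as the symbols select it, was the longest, with 48 circles of 34 genes, Ercc6, Syne1 and Synrg among them. It summed to only 2471, 2455, 2491 and 2309 CPM in frontal core, occipital core, penumbra and sham. The ratios to sham were 1.07 (0.901 to 1.27), 1.06 (0.879 to 1.29) and 1.08 (0.899 to 1.29). Exon 4 of Grin2a had 37, 34, 45 and 46 counts, exon 5 of Grin2b 47, 15, 26 and 41, and exon 9 of Grm5 the counts given above; the first 2 code for NMDA receptor subunits. Between 10 and 15 were tested in each pair and none was called. Of all circRNAs tested, 0.0538 to 0.934% were called, depending on the pair. A list this short would mostly hold no call whatever its genes, and the same applies to the lists below. Channels and transporters (36 circles) summed to 8551, 9448, 8832 and 7555 CPM, led by Slc8a1 and Kcnj6, and none was called; their median log2 ratio to sham was -0.24 in frontal core, 0.22 in occipital core and 0.15 in penumbra. Circles of the adhesion list (29, also selected by symbol), led by Fat3 and by exon 3 of the neuroligin Nlgn1 (62, 55, 39 and 70 counts), summed to 7084, 7835, 7535 and 5997 CPM, with none called. Their median log2 ratio to sham was 0.33 in frontal core (5 of 7 higher), 0.33 in occipital core (6 of 6) and 0.82 in penumbra (8 of 9).

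Chromatin regulators as the symbols select them (31 circles, without Kat6b and Cdyl, which are given above) summed to 5849, 6872, 6321 and 6926 CPM, most of it Med13l, and none was called. Their median log2 ratio to sham was 0.33 in frontal core (5 of 9 higher), 0.36 in occipital core (6 of 10) and 0.31 in penumbra (6 of 10). Exon 5 of the histone methyltransferase Ash1l had 40, 16, 12 and 28 counts and exon 2 of the histone deacetylase Hdac4 33, 39, 42 and 44. Zinc finger genes (26 circles; 1565, 1865, 1401 and 1323 CPM) and kinases (18 circles; 3616, 4922, 4795 and 3866 CPM) had no call. Exon 3 of Stk35, a nuclear kinase, had 45, 44, 48 and 41 counts, and exon 5 of Zfp827 21, 17, 24 and 23. In the ubiquitin list (19 circles) the 1 call was Rnf121, beside exon 3 of Rnf111 (14, 15, 16 and 10 counts) and exon 2 of Cul9 (13, 9, 16 and 7). Most circles tested in this list went the other way from Rnf121. Higher than sham were 4 of 5 in frontal core, 3 of 4 in occipital core and 3 of 4 in penumbra. Their median log2 ratios were 0.71, 0.83 and 0.48. In the cytoskeleton list (15 circles) the 1 call was Fmn1, beside exon 2 of Sptbn1 (12, 5, 4 and 6) and exon 2 of Myo18a (5, 7, 8 and 4). Each of these calls stands in a list of 4 or 5 circles tested in that pair.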

How the data were processed

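Per the labels' protocols, ribosomal RNA was removed from 2 µg of RNA per library before library preparation. Per the submitters' processing notes, reads were processed with TopHat2 2.0.10 and Bowtie on mm9, but the deposited coordinates lie on GRCm38 exon boundaries and are given on that build; the circRNA caller, its settings and the use of strand are not stated in the sources used here. The authors deposited whole-number read counts for each circRNA and an FPKM table, whose values equal the count divided by the genomic span in kb and scaled to the library's sum over circRNAs. Every circRNA has 2 or more counts over the 4 libraries.

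Starts and ends were matched to the exons of GENCODE M21; exons were ranked on the transcript with the most exons that holds them, protein-coding transcripts first. CPM is the count scaled to the sum of a library over all circRNAs. Ratios carry 95% exact conditional (Clopper-Pearson) intervals, CPM Poisson intervals and shares exact binomial intervals, all for counting error only, since no molecular identifiers are stated and reads may repeat a molecule. A count of 0 was set to 3 for the fold rule, which is 24.7, 36.1, 31.1 and 28.2 CPM in frontal core, occipital core, penumbra and sham. Fisher's exact test, two-sided, was run in scipy 1.17.1 on circRNAs with 10 or more counts over the pair, with Benjamini-Hochberg adjustment over all of them, and was tested on simulated data. Alternatives used TMM (edgeR 4.0.16), size factors (DESeq2 1.42.0), other count minimums, removal of GC and length trends, and the edgeR exact test.

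Named circles were the 10 highest in mean CPM, those called or past the adjusted p alone, the 3 shortest and 3 longest with 10 or more counts in every library, the most abundant of each exon rank from 2 to 10 and of first and last exons, the most abundant 3 of each host list, and circles known from other studies; others named among the extra circles of a host, by FPKM, by seed matches or among those of 1600 bases or more were chosen after their values were seen. The circles and lists were chosen with earlier results of these data known.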

Additional observations from a re-analysis of the deposited data

How the results depend on the processing

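No paired analysis was possible because each group has 1 library. Of 165 recomputed counts of calls, shares, lengths and summed ratios, 123 were labelled as the same and 42 as moved. Many of the 123 are counts of 0 calls that stayed 0. The criterion differed with the kind of value. In frontal core 641 circles detected and 579 after thinning were labelled as the same, while a share of 7.73% and one of 7.56% were not. Between penumbra and sham, 1 circle was called lower after removal of the GC trend, and 1 after removal of the length trend. Between frontal core and sham, dropping the fold rule gave 4 higher and 2 lower, and the edgeR exact test with an assumed coefficient of variation of 0.2 gave 0 lower. Between occipital core and sham, the 2 higher calls became 1 with TMM, 1 with no count filter, 0 after removal of the GC or the length trend, 0 by the edgeR exact test and 6 without the fold rule; 1 was called lower with TMM, with at least 30 counts and after removal of the length trend. Between penumbra and frontal core, the 2 lower calls became 1 after removal of the GC trend, 1 by the edgeR exact test and 4 after removal of the length trend. Between frontal and occipital core, the 1 higher call became 2 with TMM, 0 by the edgeR exact test and 2 without the fold rule, which also gave 2 lower. The cause of these changes was not tested.

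Shares of the circRNA count, in the order frontal core, occipital core, penumbra and sham, were 7.56, 8.40, 7.89 and 7.24% without exons cut by an intron of another transcript, 7.26, 8.15, 7.62 and 6.99% with protein-coding transcripts only, and 8.65, 9.76, 9.01 and 8.30% among circRNAs with 10 or more counts. The exon 2 share was 67.0, 69.1, 66.6 and 67.4% with ranks on the APPRIS principal transcript. The count-weighted median length was 714, 811, 727 and 667 bases without the most abundant circle. With TMM the occipital core ratio of circles of 1600 bases or more was 1.36. Of 126 recomputed ratios of single circles, 48 lost the threshold they had passed (the adjusted p alone or with the fold rule), 17 of them under the edgeR exact test, and none changed sign. The removal of the length trend and the scalings of the long-circle ratio were chosen after seeing the data. Depth limits single circles: only 83 of the 869 had 10 or more counts in every library.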
